A study of Danio rerio with 6 samples.

Results

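The olig2 sort stands for the middle one of 3 sorted populations of the ventral zebrafish neural tube, and its expression was set here against the populations on both sides of it. It consists of 2 libraries of GFP-positive cells from TgBAC(olig2:GFP) embryos, out of 6 libraries in all. The flanking populations are the 2 libraries of TgBAC(nkx2.2a:memGFP) cells, on the ventral side, and the 2 libraries of TgBAC(dbx1b:GFP) cells, on the dorsal side. All embryos carried the label WT for genotype, were untreated as far as the labels say, and were taken at 14 hours post fertilisation (hpf). Brain and tail had been cut off, the trunk was dissociated by pipetting, and GFP-positive cells were collected by flow sorting for total RNA. The nkx2.2a reporter is a membrane form of GFP and the other two are not so labelled, so that line, form of GFP, sort and group coincide and cannot be told apart. A stable GFP can also remain in cells that have left a domain, and bacterial artificial chromosome (BAC) reporters mark every trunk cell in which their regulatory sequence is active, neural or not.

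In the ventral neural tube, Sonic hedgehog from the notochord and floor plate sets up an order of progenitor domains along the dorsoventral axis. The pMN domain, which expresses the transcription factor gene olig2, gives rise to motor neurons and later to oligodendrocytes. The p3 domain ventral to it expresses nkx2.2a and gives rise to V3 interneurons, and the p0 domain, which expresses dbx1b, lies more dorsally. Many genes are graded along this axis, so a gene that differs between any pair of domains can simply follow the order. A gene in which the middle population lies above, or below, the populations on both sides does not follow it, and such genes are described below.

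The libraries held 6509032 and 8343382 mapped reads in olig2 cells, 11657716 and 7181936 in nkx2.2a cells and 11805966 and 13866834 in dbx1b cells, with both mates of a fragment counted. A count was present for 19464 and 18785 gene symbols in olig2 cells, 22645 and 18992 in nkx2.2a cells and 20415 and 22012 in dbx1b cells. Levels are given as counts per 1000000 mapped reads (CPM) after scaling by the trimmed mean of M-values (TMM), and differences as log2 differences between olig2 cells and the mean of both flanking populations, ± a standard error, from 2 libraries per group. The standard error was derived from the F statistic of the edgeR fit, which moderates the spread across genes. It is therefore not the spread between libraries of that gene alone. Labels do not say whether libraries of a group came from separate pools of embryos, so p-values measure only the spread between these samples, which may be technical. In bulk RNA, fewer cells of a type and less RNA per cell cannot be told apart.

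Across 19129 tested genes, 895 had their highest level in olig2 cells and 1639 their lowest, in the sense that both olig2 libraries lay beyond all 4 flanking libraries and that the fitted log2 difference from each flanking population was at least 1. These are called peaks and dips below, as a description with no test. Peaks made up 4.68% of the tested genes and dips 8.57%. By the same criterion the nkx2.2a population lay above both others in 5.64% of genes and below both in 3.5%, and the dbx1b population above both in 5.98% and below both in 5.16%. Near the limit, sulf2a lay just inside with a smaller difference of 1.05, and nkx6.1 just outside with 0.82. Among the dips, 325 had no count in either olig2 library, and among the peaks 27 had none in any flanking library. At a mean of at least 10 CPM on the higher side there were 496 peaks and 860 dips, and at 50 CPM 141 peaks and 173 dips. The olig2 libraries were among the 3 shallowest and had among the 3 lowest numbers of symbols with a count, and the part of depth in the larger number of dips was not tested. With 1 library left out, so that only 5 had to stand apart, there were between 1186 peaks, without dbx1b replicate 1, and 2681, without olig2 replicate 1, and between 1849 dips, without nkx2.2a replicate 1, and 3539, without olig2 replicate 1. Of the peaks and dips, 464 and 1129 were kept whichever library was left out. Counts of a gene list below are to be read beside the shares of 4.68% and 8.57%. Unless stated otherwise, a list median is of differences from the mean of both flanking populations, and can come mainly from 1 of them. List counts with 1 library left out are to be read beside the higher counts of all genes in those fits.

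No single gene passed the test across all genes. With edgeR's quasi-likelihood test of olig2 cells against the mean of both flanking populations, 0 of 19129 genes (0%) had a Benjamini-Hochberg adjusted p under 0.05, and the smallest adjusted p was 0.309. At an unadjusted p under 0.05, with both differences of the same sign, olig2 cells were higher in 796 genes (4.16%) and lower in 1088 (5.69%). The stricter test, which asks that olig2 cells differ from each flanking population, also called 0 genes, and at an unadjusted p under 0.05 it left 133 higher genes (0.695%) and 557 lower ones (2.91%). DESeq2, run on the same genes as an alternative, called 218 higher and 504 lower genes, among them 173 of the peaks and 456 of the dips. The libraries of a group differed widely, with a biological coefficient of variation of 0.883. A difference below is therefore one between these 6 libraries. The median log2 difference of all tested genes was -0.00255.

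**Figure D1:**
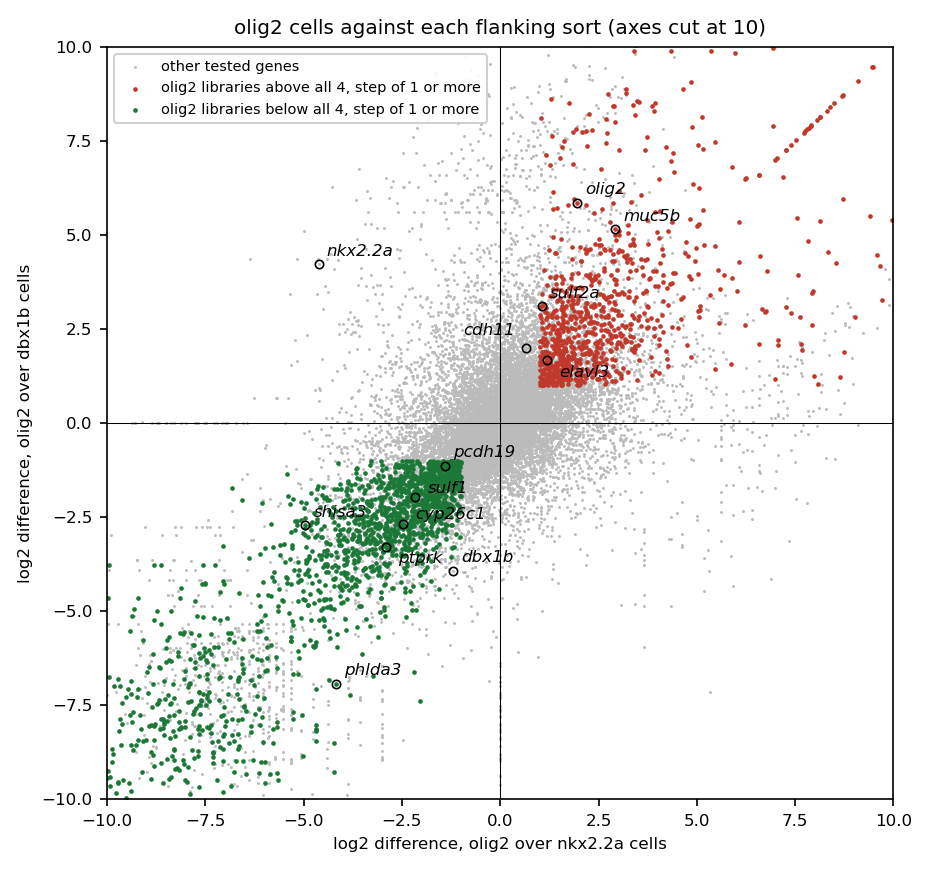
Log2 difference of olig2 over nkx2.2a cells (horizontal) and of olig2 over dbx1b cells (vertical) for each tested gene, 1 point a gene. Red points are the 895 peaks and green points the 1639 dips; nkx2.2a and dbx1b, each highest in its own population, lie outside both groups, differences beyond 10 are not shown, and genes without a count in a population lie far from the centre because their fitted differences have no natural limit.

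The labelled population was checked first on the genes behind the reporters. olig2 had 219.7 and 125 CPM in olig2 cells, 19.3 and 70.5 CPM in nkx2.2a cells and 1.8 and 4.09 CPM in dbx1b cells, and the log2 difference of olig2 cells from the mean of both sides was 3.90 ± 0.60 (edgeR adjusted p = 0.309). Both olig2 libraries lay above all 4 others, by 1.94 over nkx2.2a cells and 5.86 over dbx1b cells. The nkx2.2a cells were not free of olig2 RNA, and nkx2.2a replicate 2 had more of it than nkx2.2a replicate 1. The gene nkx2.2a itself had 8.22 and 26.5 CPM in olig2 cells, against 495 and 364 CPM in nkx2.2a cells and 0.54 and 1.27 CPM in dbx1b cells, so that its level was highest ventrally, and its mean difference of -0.20 ± 0.55 describes neither side. The gene dbx1b had 17 and 9.24 CPM in olig2 cells, against 11.5 and 49.3 CPM in nkx2.2a cells and 183 and 216 CPM in dbx1b cells. It too was highest in its own population, and the olig2 and nkx2.2a libraries overlapped.

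Of other genes of the pMN domain, nkx6.2 was shared with nkx2.2a cells and pax6a with dbx1b cells, while nkx6.1 fell just short of a peak. Among 7 tested genes of a pMN list, 6 were higher in olig2 cells and the median log2 difference was 1.09, but olig2 was the only peak. The list holds olig2 itself, behind the reporter of the sort, and its relatives olig3 and olig4. olig3 is also in the list of dorsal neural genes, so these values do not describe pMN genes alone. nkx6.1, a homeodomain repressor that promotes Olig2 expression in mouse, had 295 and 182 CPM in olig2 cells, 139 and 129 CPM in nkx2.2a cells and 27.2 and 19.9 CPM in dbx1b cells. Both olig2 libraries lay above the other 4, but the difference over nkx2.2a cells was 0.82, which leaves nkx6.1 just short of a peak. nkx6.2 had 135 and 145 CPM in olig2 cells, 129 and 166 CPM in nkx2.2a cells and 32.2 and 57.6 CPM in dbx1b cells, and did not separate olig2 from nkx2.2a cells. pax6a, a paired homeodomain gene that is repressed ventrally, had 132 and 156 CPM in olig2 cells, 32.7 and 27.5 CPM in nkx2.2a cells and 163 and 142 CPM in dbx1b cells, and did not separate olig2 from dbx1b cells. The olig2 libraries disagreed on genes of differentiated motor neurons. isl2a, a LIM homeodomain gene of motor neurons, had 0 and 29.2 CPM in olig2 cells, isl1 had 3.04 and 22.5 CPM and mnx1 had 28.9 and 4.5 CPM, so that replicate 2 was higher for isl2a and isl1 and replicate 1 for mnx1. Of 9 tested motor neuron genes, 0 were peaks and 1 was a dip, and the median of 0.00 became -2.12 without olig2 replicate 2.

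Some genes of early neuronal differentiation, elavl3, myt1a, neurog1, ebf2 and nhlh2, were peaks, while the other neurogenesis genes were not. Of 33 tested neurogenesis genes, 18 were higher and 15 lower in olig2 cells, 5 were peaks (15%) and 1 was a dip (3.03%), beside 4.68% and 8.57% of all genes, and the list median was 0.09. With 1 library left out its peaks numbered between 3, without nkx2.2a replicate 2, and 7. elavl3, which encodes the HuC RNA-binding protein of newborn neurons, had 1378 and 1226 CPM in olig2 cells, 711 and 428 CPM in nkx2.2a cells and 456 and 359 CPM in dbx1b cells. The olig2 libraries were close to each other and clear of the other 4 (log2 difference 1.43 ± 0.28, edgeR adjusted p = 0.33). myt1a, a zinc finger gene of neuronal differentiation, had 465 and 311 CPM in olig2 cells, 218 and 119 CPM in nkx2.2a cells and 115 and 92.7 CPM in dbx1b cells (log2 difference 1.55 ± 0.35). neurog1, the proneural basic helix-loop-helix gene, had 84.6 and 71.6 CPM in olig2 cells, against 20.2 and 7.56 CPM in nkx2.2a cells and 54 and 15.6 CPM in dbx1b cells. Its olig2 values were close to each other, and dbx1b replicate 1 came nearest to them (log2 difference 1.82 ± 0.65). The other peaks were ebf2, with 91 and 71.1 CPM in olig2 cells and 12.5 to 38 CPM in the flanking libraries, and nhlh2, with 59.3 and 34.4 CPM in olig2 cells and 0 to 12.3 CPM in the flanking libraries. onecut1 was the dip, with 2.43 and 3.79 CPM in olig2 cells, against 4.9 and 27.8 CPM in nkx2.2a cells and 21.8 and 19.7 CPM in dbx1b cells.

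Notch ligands, their targets and progenitor genes gave no peak. Peaks were 4.68% and dips 8.57% of all genes, so a list of 15 genes can hold no peak without standing apart. deltaD (dld) had 185 and 162 CPM in olig2 cells, 139 and 75.3 CPM in nkx2.2a cells and 222 and 180.1 CPM in dbx1b cells, and its mean difference of 0.24 had a 95% interval of -0.58 to 1.06. The stathmin gene stmn1a, the proneural gene neurod4 and the Delta target her4.2 were likewise neither peaks nor dips. Of 15 tested neural progenitor genes, 0 were peaks and 1 was a dip, sox1a, which had 0.913 and 0.474 CPM in olig2 cells, 19.6 and 1.51 CPM in nkx2.2a cells and 2.34 and 2.54 CPM in dbx1b cells with nkx2.2a replicate 1 apart from the other flanking libraries. Without olig2 replicate 2 that list had 5 dips. sox3 had 195 and 167 CPM in olig2 cells, 199.8 and 159.7 CPM in nkx2.2a cells and 199.7 and 147 CPM in dbx1b cells, a mean difference of 0.04 with an interval of -0.70 to 0.77. Genes of S phase counted 2 peaks (6.90%) and 0 dips of 29, beside 4.68% and 8.57% of all genes. One was cdca7b, with 299 and 572 CPM in olig2 cells, 180.3 and 136 CPM in nkx2.2a cells and 223 and 150.1 CPM in dbx1b cells. The other was gins2, which encodes a subunit of the replicative helicase. It had 111 and 63.1 CPM in olig2 cells, 36.6 and 35.4 CPM in nkx2.2a cells and 31.2 and 26.8 CPM in dbx1b cells. Of 38 genes of G2 and M phase and 78 ribosomal protein genes none was a peak or a dip, and their medians were 0.07 and -0.05.

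**Figure D2:**
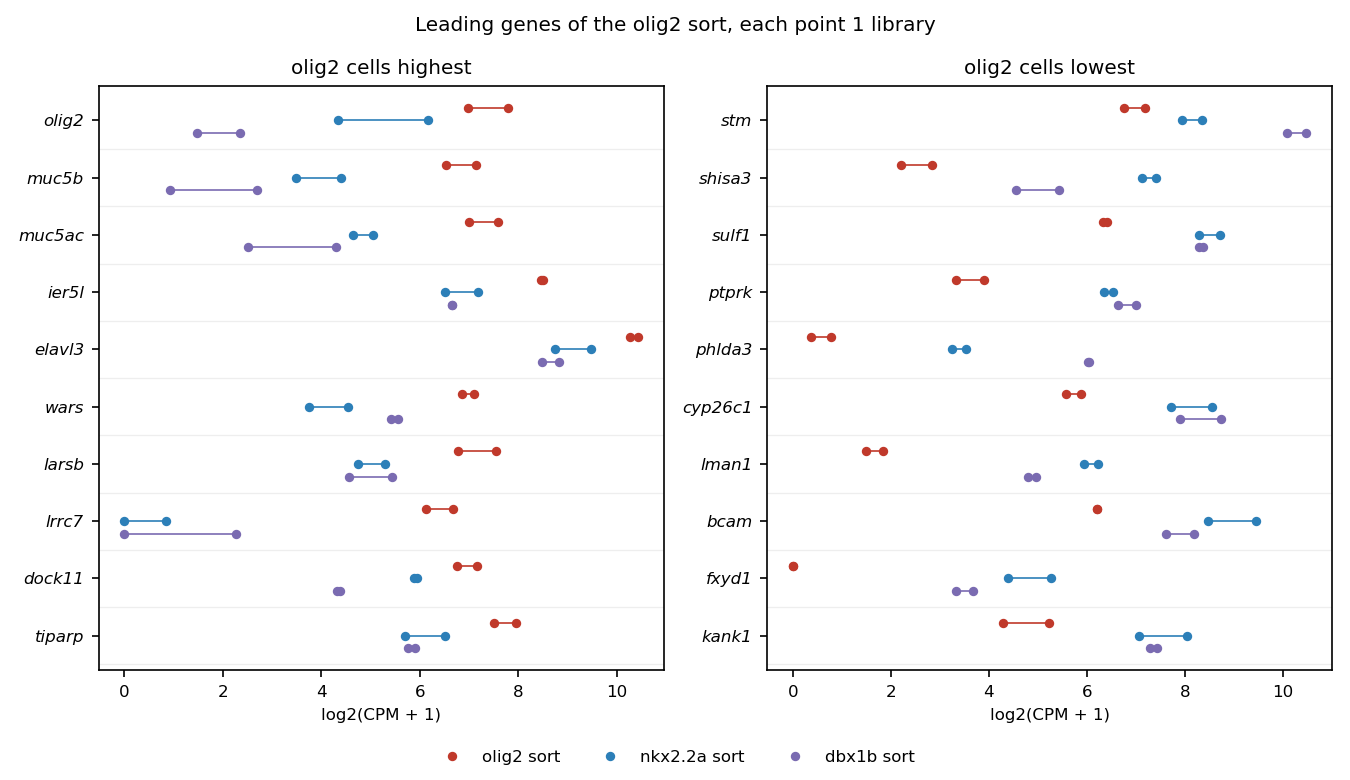
Level of the 10 leading peaks (left) and 10 leading dips (right) in each library, as log2(CPM + 1), ordered by the unadjusted p of edgeR's test of the mean difference, not by its size. Red points are the olig2 libraries, blue the nkx2.2a and violet the dbx1b libraries, and a line joins the libraries of a group; the red pair lies clear of the other 4 points in each gene by construction, as at 1378 and 1226 CPM for elavl3.

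The leading peaks after olig2 were a mixed set of secreted, synthetic and signalling genes. Gel-forming mucin genes came next: muc5b had 91 and 141 CPM in olig2 cells, 10.3 and 20.3 CPM in nkx2.2a cells and 0.90 and 5.5 CPM in dbx1b cells (log2 difference 4.04 ± 0.71), and muc5ac had 191 and 128 CPM in olig2 cells, 32.2 and 23.9 CPM in nkx2.2a cells and 4.68 and 18.7 CPM in dbx1b cells (log2 difference 3.13 ± 0.56). In both, the nkx2.2a libraries also lay above the dbx1b libraries. Mucins resemble each other in sequence, and it is not stated how reads with several matches were counted, so they are uncertain as single genes. sulf2a, an extracellular endosulfatase that edits heparan sulfate, had 281 and 270.0 CPM in olig2 cells, 207 and 58.1 CPM in nkx2.2a cells and 33.3 and 30.6 CPM in dbx1b cells, and only nkx2.2a replicate 1 approached the olig2 level. ier5l, a relative of the immediate early gene ier5, had 360.3 and 352 CPM in olig2 cells, 145 and 89.8 CPM in nkx2.2a cells and 99.8 and 99.1 CPM in dbx1b cells (log2 difference 1.72 ± 0.32). tiparp, which encodes an ADP-ribosyltransferase induced by the aryl hydrocarbon receptor, had 247 and 181 CPM in olig2 cells, 89.7 and 50.8 CPM in nkx2.2a cells and 59.2 and 53.1 CPM in dbx1b cells.

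Further leading peaks encoded intracellular proteins of several kinds. wars, the cytosolic tryptophanyl-tRNA synthetase gene, had 116 and 137 CPM in olig2 cells, 22.3 and 12.4 CPM in nkx2.2a cells and 42 and 45.8 CPM in dbx1b cells (log2 difference 2.19 ± 0.44). larsb, a leucyl-tRNA synthetase gene, had 109 and 187 CPM in olig2 cells, 38.1 and 26 CPM in nkx2.2a cells and 42.3 and 22.6 CPM in dbx1b cells (log2 difference 2.2 ± 0.46). srp68, which encodes a subunit of the signal recognition particle, had 101 and 215 CPM in olig2 cells, 33.3 and 23.9 CPM in nkx2.2a cells and 53.1 and 24.4 CPM in dbx1b cells, and all 4 flanking libraries lay below both olig2 libraries. dock11, a guanine nucleotide exchange factor gene for Cdc42, had 142 and 106 CPM in olig2 cells, 60.3 and 57.8 CPM in nkx2.2a cells and 18.9 and 19.7 CPM in dbx1b cells, so that the flanking populations also differed from each other. lrrc7, whose mammalian product is a scaffold protein of synapses, had 69.1 and 101 CPM in olig2 cells, against 0.79 and 0 CPM in nkx2.2a cells and 0 and 3.81 CPM in dbx1b cells. At most 1 flanking library had more than 0.79 CPM, and its difference of 6.50 ± 1.37 rests on few counts there. None of these was called by edgeR (adjusted p 0.309 to 0.361).

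Guidance genes were the group with the largest share of dips among the 32 lists. Of 38 tested genes for Slits, Robos, semaphorins, neuropilins, plexins and netrins with their receptors, 12 were dips (31.6%) and 0 were peaks, beside 8.57% and 4.68% of all genes. The list median was -0.78, and 25 members were lower in olig2 cells and 13 higher. The number of dips was between 11 and 15 with any 1 library left out. Leaving out a library eases the criterion, and dips of all genes then numbered between 1849 and 3539, against 1639 with all libraries. The range for the list is therefore no measure of its stability. The median was -1.78 without olig2 replicate 2 and -1.28 without olig2 replicate 1. nrp1a, a neuropilin that serves as co-receptor for class 3 semaphorins and for vascular endothelial growth factor, had 4.87 and 4.03 CPM in olig2 cells, 43.4 and 74.1 CPM in nkx2.2a cells and 32.4 and 39 CPM in dbx1b cells. Both olig2 libraries were lower than each flanking library by a wide margin (log2 difference -3.36 ± 0.70). slit2, a midline repellent, had 2.43 and 8.06 CPM in olig2 cells, 71.7 and 138 CPM in nkx2.2a cells and 21.8 and 35.1 CPM in dbx1b cells (log2 difference -3.37 ± 0.75). robo1, one of its receptors, had 37.1 and 28.2 CPM in olig2 cells, 178 and 62.9 CPM in nkx2.2a cells and 169 and 148 CPM in dbx1b cells (log2 difference -2.08 ± 0.52), and nkx2.2a replicate 2 was nearest to olig2 cells. Ligand and receptor were both lowest in the middle population.

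Further receptors and a ligand followed the same pattern at moderate or high levels. nrp2b had 66 and 63.5 CPM in olig2 cells, 126 and 152 CPM in nkx2.2a cells and 252 and 182 CPM in dbx1b cells, and its relative nrp2a had 15 and 13 CPM in olig2 cells, 63.2 and 62.3 CPM in nkx2.2a cells and 40.7 and 69.8 CPM in dbx1b cells. neo1a, which encodes the netrin and repulsive guidance receptor neogenin, had 19.8 and 11.4 CPM in olig2 cells, 73.3 and 146 CPM in nkx2.2a cells and 37.8 and 44.7 CPM in dbx1b cells. slit3 had 78.8 and 136 CPM in olig2 cells, 259 and 613 CPM in nkx2.2a cells and 158 and 413 CPM in dbx1b cells, where dbx1b replicate 1 came close to olig2 replicate 2. The remaining dips of the list were sema3d, sema3aa, sema3ga, unc5c and plxna4, the last with no count in either olig2 library and at most 3.38 CPM elsewhere. Not all guidance genes were low. slit1a had 99.5 and 114 CPM in olig2 cells, 206 and 223 CPM in nkx2.2a cells and 59.4 and 57.5 CPM in dbx1b cells, which follows the order, and robo3, a receptor of commissural axons, had 414 and 260.0 CPM in olig2 cells, 228 and 131 CPM in nkx2.2a cells and 149 and 293 CPM in dbx1b cells, with a mean difference of 0.76 and an interval of -0.13 to 1.64. plxnb2b was higher in olig2 cells through 1 library, at 1.52 and 46.9 CPM.

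Ephrins and Eph receptors, which mediate repulsion between neighbouring cells and axons, counted 4 dips (19.0%) and 0 peaks among 21, beside 8.57% and 4.68% of all genes, with a median of -0.85. ephb3a had 15.8 and 3.56 CPM in olig2 cells, 77.4 and 121 CPM in nkx2.2a cells and 33.3 and 63.7 CPM in dbx1b cells (log2 difference -2.84 ± 0.76). The ligand efna5a had 7.0 and 8.3 CPM in olig2 cells, 49.9 and 106 CPM in nkx2.2a cells and 11.7 and 37.8 CPM in dbx1b cells (log2 difference -2.52 ± 0.76), and dbx1b replicate 1 was near the olig2 level. epha5 had no count in olig2 cells and a mean of 3.52 CPM in the flanking libraries, at least 8.82-fold lower when olig2 cells are set at 3 fragments over both libraries, and efnb1 was the remaining dip. The receptors ephb2b and epha2a lay the other way with both olig2 libraries above all 4 others, but by less than the step: ephb2b had 428 and 398 CPM in olig2 cells, 264 and 251 CPM in nkx2.2a cells and 289 and 281 CPM in dbx1b cells, and epha2a had 112 and 97.2 CPM in olig2 cells, 60.6 and 52.3 CPM in nkx2.2a cells and 44.8 and 26.8 CPM in dbx1b cells. The list had 8 dips without olig2 replicate 2, 7 without olig2 replicate 1 and 3 without dbx1b replicate 2.

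**Figure D3:**
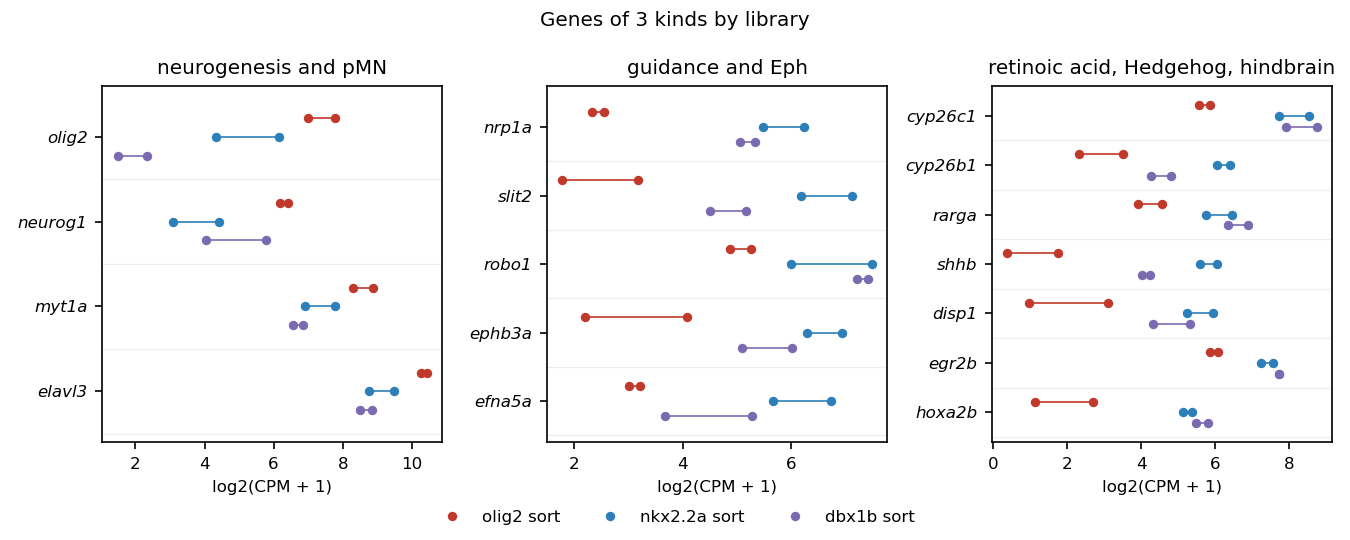
Level in each library, as log2(CPM + 1), of named genes from 3 kinds of lists: neurogenesis and pMN genes (left), guidance and Eph genes (middle), and retinoic acid, Hedgehog and hindbrain genes (right). Colours are red for olig2, blue for nkx2.2a and violet for dbx1b libraries. Only peaks were drawn on the left and only dips in the other panels. The red pair is therefore highest or lowest by construction, as for nrp1a at 4.87 and 4.03 CPM. List members with another pattern, such as robo3, gli1 and stra6, are not drawn.

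Cell adhesion genes of the cadherin families differed from each other. pcdh19, a delta protocadherin, was a dip, with 186 and 178 CPM in olig2 cells, 652 and 311 CPM in nkx2.2a cells and 322 and 476 CPM in dbx1b cells (log2 difference -1.27 ± 0.38, edgeR adjusted p = 0.407). Its olig2 libraries were close to each other, and nkx2.2a replicate 2 and dbx1b replicate 1 came nearest to them. It kept the step in 4 of the 6 fits that left out 1 library. cdh11, a type II cadherin, had 485 and 163 CPM in olig2 cells, 258 and 153 CPM in nkx2.2a cells and 47.5 and 114 CPM in dbx1b cells (log2 difference 1.33 ± 0.50). Its olig2 libraries were far apart and overlapped those of nkx2.2a cells, so cdh11 was no peak. cdh2, or N-cadherin, the main classical cadherin of neural progenitors, had 852 and 745 CPM in olig2 cells, 979.7 and 939 CPM in nkx2.2a cells and 1219 and 1166 CPM in dbx1b cells. Both olig2 libraries were the lowest, but the difference of -0.42 ± 0.24 had an interval of -0.96 to 0.12. cdh1, or E-cadherin of epithelia, was a dip, with 71.2 and 28 CPM in olig2 cells, 231 and 288 CPM in nkx2.2a cells and 118 and 127 CPM in dbx1b cells. Among 10 tested classical and type II cadherins, cdh1 was the 1 dip (10%) and cdh17 the 1 peak (10%). Over all genes dips were 8.57% and peaks 4.68%. cdh17 was low, with 8.82 and 6.64 CPM in olig2 cells, 1.58 and 4.23 CPM in nkx2.2a cells and 1.62 and 0.282 CPM in dbx1b cells. pcdh19 was the only dip of 12 delta protocadherins (8.33%), of which 4 were dips without olig2 replicate 1. Of 47 clustered protocadherins, which are similar copies and uncertain as single genes, 2 were peaks (4.26%, pcdh1g26 and pcdh1g9) and 0 were dips. These counts changed with the library left out. There were 11 peaks and 2 dips without olig2 replicate 2, and 3 peaks and 9 dips without olig2 replicate 1. Without nkx2.2a replicate 1 there were 5 peaks and 0 dips. Over all genes those fits gave 2500, 2681 and 1361 peaks, against 895 with all libraries. Their dips numbered 3107, 3539 and 1849, against 1639.

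Retinoic acid genes held 6 dips (26.1%) and 2 peaks (8.70%) among 23, beside 8.57% and 4.68% of all genes, although the list median was 0.18. Retinoic acid from the somites patterns the spinal cord and hindbrain and is broken down by enzymes of the Cyp26 family. cyp26c1 had 57.5 and 46.7 CPM in olig2 cells, 209.5 and 373 CPM in nkx2.2a cells and 238 and 427 CPM in dbx1b cells, with both olig2 libraries far below the other 4 (log2 difference -2.58 ± 0.44). cyp26b1 had 3.96 and 10.4 CPM in olig2 cells, 65.4 and 84.1 CPM in nkx2.2a cells and 18.2 and 26.9 CPM in dbx1b cells (log2 difference -2.51 ± 0.71). cyp26a1, the enzyme gene of the tailbud, did not share the pattern, with 12.5 and 71.6 CPM in olig2 cells, 30.6 and 21.2 CPM in nkx2.2a cells and 344 and 246 CPM in dbx1b cells. The receptor gene rarga had 22.5 and 14.2 CPM in olig2 cells, 52.9 and 86.8 CPM in nkx2.2a cells and 81 and 118 CPM in dbx1b cells (log2 difference -2.18 ± 0.54), and rxraa, dhrs3b and rdh10a were the other dips. The peaks were stra6, a retinol transporter gene, with 17.6 and 10.9 CPM in olig2 cells, 2.84 and 5.14 CPM in nkx2.2a cells and 3.78 and 1.13 CPM in dbx1b cells, and the binding protein gene crabp1b, with 12.5 and 18.7 CPM in olig2 cells, 4.9 and 7.56 CPM in nkx2.2a cells and 3.42 and 2.11 CPM in dbx1b cells. aldh1a2, which makes retinoic acid, was high in 1 library only, nkx2.2a replicate 2. With 1 library left out the dips numbered from 5 to 8, and the median was -0.54 without olig2 replicate 2.

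Some hindbrain genes were lowest in olig2 cells as well, while the hindbrain gene mafba, with 85.2 and 101 CPM in olig2 cells, 88.6 and 37.8 CPM in nkx2.2a cells and 182 and 151 CPM in dbx1b cells, was not. egr2b (krox20), which marks specific rhombomeres, had 56.9 and 66.8 CPM in olig2 cells, 151 and 189.9 CPM in nkx2.2a cells and 209 and 210.4 CPM in dbx1b cells (log2 difference -1.61 ± 0.36). The olig2 libraries were again close to each other and below the rest. hoxa2b, the most anteriorly expressed hindbrain Hox gene, had 5.48 and 1.19 CPM in olig2 cells, 40.7 and 34.2 CPM in nkx2.2a cells and 43.9 and 54.8 CPM in dbx1b cells (log2 difference -3.70 ± 0.88) and was the 1 dip of 44 Hox genes, among which there were 0 peaks. stm (starmaker), which encodes an otolith matrix protein of the ear, headed the dips by its test, with 145 and 108 CPM in olig2 cells, 324 and 246 CPM in nkx2.2a cells and 1422 and 1086 CPM in dbx1b cells (log2 difference -2.24 ± 0.32). It kept the step in 4 of the 6 fits that left out 1 library, and its flanking populations differed, since dbx1b cells lay far above nkx2.2a cells. pax5, of the midbrain-hindbrain boundary and the ear, had no count in olig2 cells and a mean of 10.9 CPM in the flanking libraries, at least 27.3-fold lower. The posterior Hox gene hoxa9a had 89.2 and 66.8 CPM in olig2 cells, 9.0 and 12.1 CPM in nkx2.2a cells and 162 and 73.9 CPM in dbx1b cells, where olig2 and dbx1b libraries overlapped. Among 31 tested genes of a brain list, 4 were dips (12.9%) and 3 were peaks (9.68%), beside 8.57% and 4.68% of all genes. Without olig2 replicate 1 the list had 10 dips, while dips of all genes rose from 1639 to 3539. The list summed to 623 and 891 CPM in olig2 cells, 928 and 1241 CPM in nkx2.2a cells and 663 and 828 CPM in dbx1b cells. The labels do not say how far forward each trunk was cut, and the part of that in these differences was not tested.

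Hedgehog is the signal that places the pMN domain, and 2 of 18 tested genes of the pathway were dips (11.1%), beside 8.57% of all genes. gli1, a direct target of the pathway, had 224 and 164 CPM in olig2 cells, 166 and 295 CPM in nkx2.2a cells and 96.3 and 128 CPM in dbx1b cells, a mean difference of 0.27 with an interval of -0.55 to 1.09. Its olig2 values were within the range of the other 4. shhb, one of the zebrafish Sonic hedgehog genes, had 0.304 and 2.37 CPM in olig2 cells, 64.9 and 47.2 CPM in nkx2.2a cells and 15.3 and 18 CPM in dbx1b cells (log2 difference -4.48 ± 1.04), and shha had 32.3 and 21.1 CPM in olig2 cells, 111 and 188 CPM in nkx2.2a cells and 26.1 and 45 CPM in dbx1b cells, so that only shhb was lowest in olig2 cells by the criterion. disp1, which releases Hedgehog from producing cells, had 7.61 and 0.948 CPM in olig2 cells, 36.5 and 60.2 CPM in nkx2.2a cells and 18.9 and 38.6 CPM in dbx1b cells (log2 difference -3.13 ± 1.01). shhb and disp1 were these dips, which numbered 5 without olig2 replicate 1, and the list had 0 peaks and a median of -0.50.

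Among the extracellular sulfatases, sulf1 was a dip and sulf2a a peak near the limit. Sulf enzymes remove sulfate groups from heparan sulfate and so change how cells bind Hedgehog, Wnt and FGF ligands. sulf1 had 79.4 and 83.9 CPM in olig2 cells, 313 and 420.4 CPM in nkx2.2a cells and 313 and 328 CPM in dbx1b cells, with the olig2 libraries almost equal and far below the rest (log2 difference -2.07 ± 0.33, edgeR adjusted p = 0.309). sulf2a was a peak, as given above (log2 difference 2.08 ± 0.46, edgeR adjusted p = 0.361). Its difference over nkx2.2a cells was only 1.05. It kept the step in 5 of the 6 fits that left out 1 library, and lost it without nkx2.2a replicate 2. sulf2b had 176 and 116 CPM in olig2 cells, 285 and 124 CPM in nkx2.2a cells and 17.5 and 13 CPM in dbx1b cells, with overlap between olig2 and nkx2.2a libraries and both above dbx1b cells. Per length of transcript, sulf1 had 16.7 and 17.6 FPKM in olig2 cells, 70.5 and 80.4 FPKM in nkx2.2a cells and 61.2 and 69.6 FPKM in dbx1b cells. sulf2a had 70.0 and 68.2 FPKM in olig2 cells, 56.3 and 13.6 FPKM in nkx2.2a cells and 7.72 and 7.85 FPKM in dbx1b cells. On that scale, which divides by transcript length and library size (FPKM), sulf2a was the more abundant of the pair in olig2 cells and sulf1 in each of the flanking libraries. Both are in the list of p3 and floor plate genes, where 4 of 18 were dips (22.2%) and 2 were peaks (11.1%), beside 8.57% and 4.68% of all genes, with a median of -0.14. The median was 0.17 without dbx1b replicate 2, and the peaks numbered 4 without nkx2.2a replicate 1 and 1 without nkx2.2a replicate 2. Against each flanking population singly, the list median was -1.78 over nkx2.2a cells and 1.13 over dbx1b cells. The other members past the step were the dips shhb, foxj1b, of motile cilia, and spon1b, and the peak sim1a, a transcription factor gene of V3 interneurons and pronephros, with 23.7 and 30.1 CPM in olig2 cells, 6.32 and 2.72 CPM in nkx2.2a cells and 1.26 and 5.36 CPM in dbx1b cells.

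Genes of the FGF, BMP and Wnt pathways were examined in the same way, beside dips at 8.57% and peaks at 4.68% of all genes. Among FGF genes, 3 of 22 were dips (13.6%), a number that was 7 without olig2 replicate 2 and 6 without olig2 replicate 1: il17rd (sef), a feedback inhibitor, with 31 and 47.6 CPM in olig2 cells, 70.7 and 175 CPM in nkx2.2a cells and 197 and 219.9 CPM in dbx1b cells, the target gene etv4, with 49.3 and 15.6 CPM in olig2 cells, 79.4 and 208 CPM in nkx2.2a cells and 92.4 and 179.6 CPM in dbx1b cells, and fgf3. dusp4, a phosphatase of MAP kinases, was the 1 FGF peak, with 74.9 and 83.9 CPM in olig2 cells, 22.3 and 2.42 CPM in nkx2.2a cells and 36.9 and 39.9 CPM in dbx1b cells. For BMP there were 4 dips (11.1%) and 0 peaks among 36, including the inhibitory Smad smad6a, with 11.3 and 20.4 CPM in olig2 cells, 76.3 and 176 CPM in nkx2.2a cells and 69.9 and 53.8 CPM in dbx1b cells, and the target id3, with 55.7 and 23.2 CPM in olig2 cells, 100.4 and 142 CPM in nkx2.2a cells and 149 and 189 CPM in dbx1b cells. The BMP antagonist gene nog2 had no count in olig2 cells, at least 10.5-fold lower than the flanking mean of 4.19 CPM. The median of the BMP list was 0.13 and changed sign in 4 of the 6 fits without 1 library. Wnt receptors of the Frizzled family gave the 2 dips of 34 Wnt genes (5.88%), which had 7 dips without olig2 replicate 1 and 5 without olig2 replicate 2. fzd8b had no count in olig2 cells and 21.3 and 32.1 CPM in nkx2.2a cells and 3.42 and 18.3 CPM in dbx1b cells. It was at least 47-fold lower than the flanking mean of 18.8 CPM. fzd2 had 41.1 and 32 CPM in olig2 cells, 65.4 and 109 CPM in nkx2.2a cells and 94.7 and 75.3 CPM in dbx1b cells.

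The leading dips outside these lists were genes of the cell surface and the secretory route. shisa3, of a family of transmembrane proteins that act on Wnt and FGF receptors in Xenopus, had 3.65 and 6.16 CPM in olig2 cells, 139 and 168 CPM in nkx2.2a cells and 22.3 and 42.1 CPM in dbx1b cells (log2 difference -3.84 ± 0.60). ptprk, a receptor tyrosine phosphatase gene, had 14 and 9.01 CPM in olig2 cells, 91.9 and 81 CPM in nkx2.2a cells and 126 and 98.9 CPM in dbx1b cells (log2 difference -3.10 ± 0.51). bcam, a laminin receptor in mammals, had 73 and 73.2 CPM in olig2 cells, 355 and 693 CPM in nkx2.2a cells and 196 and 289.9 CPM in dbx1b cells, where the olig2 libraries were almost equal. lman1, a cargo lectin between endoplasmic reticulum and Golgi, had 1.83 and 2.61 CPM in olig2 cells, 60.8 and 73.8 CPM in nkx2.2a cells and 26.8 and 30.0 CPM in dbx1b cells. kank1, an adaptor at the actin cortex, had 36.5 and 18.5 CPM in olig2 cells, 132 and 264 CPM in nkx2.2a cells and 155 and 170.4 CPM in dbx1b cells. In ptprk and kank1 the flanking populations lay in a similar range, whereas shisa3, lman1 and bcam stood higher in both nkx2.2a libraries than in either dbx1b library. fxyd1, a regulator of the sodium pump, and bzw2 had no count in olig2 cells. They were at least 48.9-fold and 47.7-fold lower than their flanking means of 19.6 and 19 CPM. Their means in dbx1b cells alone were lower, at 10.4 and 7.11 CPM, so the bounds on that side are smaller.

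Most p53 response genes were lower in olig2 cells than the mean of both flanking populations, which were not alike in them. Of 17 tested genes of the p53 response, 15 were lower, 4 were dips (23.5%) and 1 was a peak (5.88%), beside 8.57% and 4.68% of all genes, with a median of -1.39. That median ranged from -1.58 to -1.25 with 1 library left out, and the dips numbered 7 without nkx2.2a replicate 2. Against each flanking population singly, the median was -0.40 over nkx2.2a cells and -1.99 over dbx1b cells. The list summed to 1857 and 1931 CPM in olig2 cells, 1601 and 1900.1 CPM in nkx2.2a cells and 4013 and 3566 CPM in dbx1b cells, so that its total separated dbx1b cells from both other populations. phlda3, a p53 target in mammals, had 0.304 and 0.711 CPM in olig2 cells, 8.53 and 10.6 CPM in nkx2.2a cells and 64.8 and 64.1 CPM in dbx1b cells (log2 difference -5.55 ± 0.93). The stress-induced sestrin gene sesn3 had 23.4 and 15.4 CPM in olig2 cells, 51.5 and 40.2 CPM in nkx2.2a cells and 87.2 and 131 CPM in dbx1b cells, sesn1 had 5.78 and 24.2 CPM in olig2 cells, 52.6 and 60.5 CPM in nkx2.2a cells and 73.3 and 77.4 CPM in dbx1b cells, and cdkn1a, the p21 gene, had 2.43 and 2.61 CPM in olig2 cells, 10.4 and 6.65 CPM in nkx2.2a cells and 31.3 and 33.3 CPM in dbx1b cells. A list of immediate early and stress genes gave 9 dips (20.9%) and 3 peaks (6.98%) among 43, with a median of -0.57 that was -0.27 without nkx2.2a replicate 1. Its median was -0.30 over nkx2.2a cells and -0.93 over dbx1b cells. The sums were 6374 and 6409 CPM in olig2 cells, 5292 and 6702 CPM in nkx2.2a cells and 9143 and 8042 CPM in dbx1b cells. This total, too, separated dbx1b cells from both other populations. The abundant members were not among the dips. fosab had 541 and 299 CPM in olig2 cells, 285 and 629.9 CPM in nkx2.2a cells and 676 and 603 CPM in dbx1b cells, and the heat shock gene hspa8 had 2603 and 2803 CPM in olig2 cells, 2543 and 3445 CPM in nkx2.2a cells and 3543 and 2570.4 CPM in dbx1b cells. bag3, a co-chaperone gene, had 0 and 0.237 CPM in olig2 cells, 7.42 and 49 CPM in nkx2.2a cells and 7.56 and 6.34 CPM in dbx1b cells, and dusp5 had no count in olig2 cells, at least 17.7-fold lower. No flanking library exceeded 49.0 CPM in any of the 9 dips.

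Markers of other trunk tissues were read in the same way, since each BAC reporter can be active outside the neural tube. Notochord genes counted 5 dips (27.8%) and 0 peaks among 18, beside 8.57% and 4.68% of all genes, with a median of -0.50. That median was -1.37 without olig2 replicate 2, -1.24 without olig2 replicate 1, -1.13 without nkx2.2a replicate 2 and -0.33 without nkx2.2a replicate 1. col2a1a had 70.6 and 120.4 CPM in olig2 cells, 296 and 531 CPM in nkx2.2a cells and 230.2 and 154 CPM in dbx1b cells, and col9a3 had 0 and 0.474 CPM in olig2 cells, 26.8 and 25.4 CPM in nkx2.2a cells and 7.92 and 4.09 CPM in dbx1b cells. The notochord list summed to 429.6 and 539 CPM in olig2 cells, 1273 and 1512 CPM in nkx2.2a cells and 674 and 758 CPM in dbx1b cells, and shhb belongs to it too. Epidermal genes counted 4 dips (12.1%) and 1 peak (3.03%) among 33, with a median of 0.32 that became -0.54, with 8 dips, without olig2 replicate 1. The claudin gene cldnb had 0.913 and 0.948 CPM in olig2 cells, 43.4 and 63.5 CPM in nkx2.2a cells and 6.66 and 5.5 CPM in dbx1b cells. The epidermal list summed to 2360.3 and 2201 CPM in olig2 cells, 3310.5 and 3559.8 CPM in nkx2.2a cells and 1964 and 1238 CPM in dbx1b cells. For muscle and somite, 22 of 27 genes were lower, 1 was a dip and the median was -0.86, with sums of 614 and 753 CPM in olig2 cells, 3412 and 1029.8 CPM in nkx2.2a cells and 723 and 508 CPM in dbx1b cells. The muscle sum was set apart by nkx2.2a replicate 1, and without that library the median was -0.08, while without olig2 replicate 1 there were 4 dips. Genes of presomitic mesoderm and tailbud had a median of -1.74, 2 dips (7 without nkx2.2a replicate 1) and 0 peaks among 21, and sums of 975 and 756 CPM in olig2 cells, 524 and 684 CPM in nkx2.2a cells and 2821 and 2739.5 CPM in dbx1b cells, so that they marked dbx1b cells rather than the middle population. her1, the segmentation clock gene, had 3.96 and 1.42 CPM in olig2 cells, 7.42 and 16.3 CPM in nkx2.2a cells and 115 and 54.4 CPM in dbx1b cells. In both olig2 libraries 9 of 34 muscle, 4 of 20 notochord, 4 of 23 presomitic and 1 of 36 epidermal list members had no count. Over all 30677 symbols, only 19464 and 18785 had a count in the olig2 libraries. List members without a count in the flanking libraries were not tallied, so these zeros do not set olig2 cells apart. The part of cells of these tissues in the differences of other genes was not tested.

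Blood and endothelial genes lay the other way. Of 21 tested genes, 4 were peaks (19.0%) and 0 were dips, beside 4.68% and 8.57% of all genes, and the median of 1.40 was the highest of the 32 lists. The list summed to 176 and 396 CPM in olig2 cells, 146 and 207 CPM in nkx2.2a cells and 119.8 and 169 CPM in dbx1b cells, and the highest sum came from olig2 replicate 2. etv2, which directs endothelial and blood fate, had 23.4 and 109 CPM in olig2 cells, 9.0 and 1.81 CPM in nkx2.2a cells and 16.9 and 11.6 CPM in dbx1b cells. fli1a, an Ets gene of endothelium, had 16.4 and 11.6 CPM in olig2 cells, 5.84 and 0.907 CPM in nkx2.2a cells and 4.86 and 7.75 CPM in dbx1b cells, and fli1b had 4.56 and 12.1 CPM in olig2 cells, 2.53 and 3.93 CPM in nkx2.2a cells and 3.06 and 3.1 CPM in dbx1b cells. tek, the angiopoietin receptor gene, had 36.5 and 1.42 CPM in olig2 cells, 0.79 and 0.605 CPM in nkx2.2a cells and 0.90 and 0.423 CPM in dbx1b cells, a peak by 1 library. The median became -0.71, with 6 dips, without olig2 replicate 2, so the list's direction rested on that library. Among the genes that define blood, gata1a was low throughout, at 7.61 and 3.56 CPM in olig2 cells and at most 4.23 CPM in the flanking libraries. Pronephric and endodermal genes counted 3 peaks (sim1a, hnf1bb and cdh17) and 1 dip (foxa1) among 18, with 5 peaks and 3 dips without olig2 replicate 2.

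**Figure D4:**
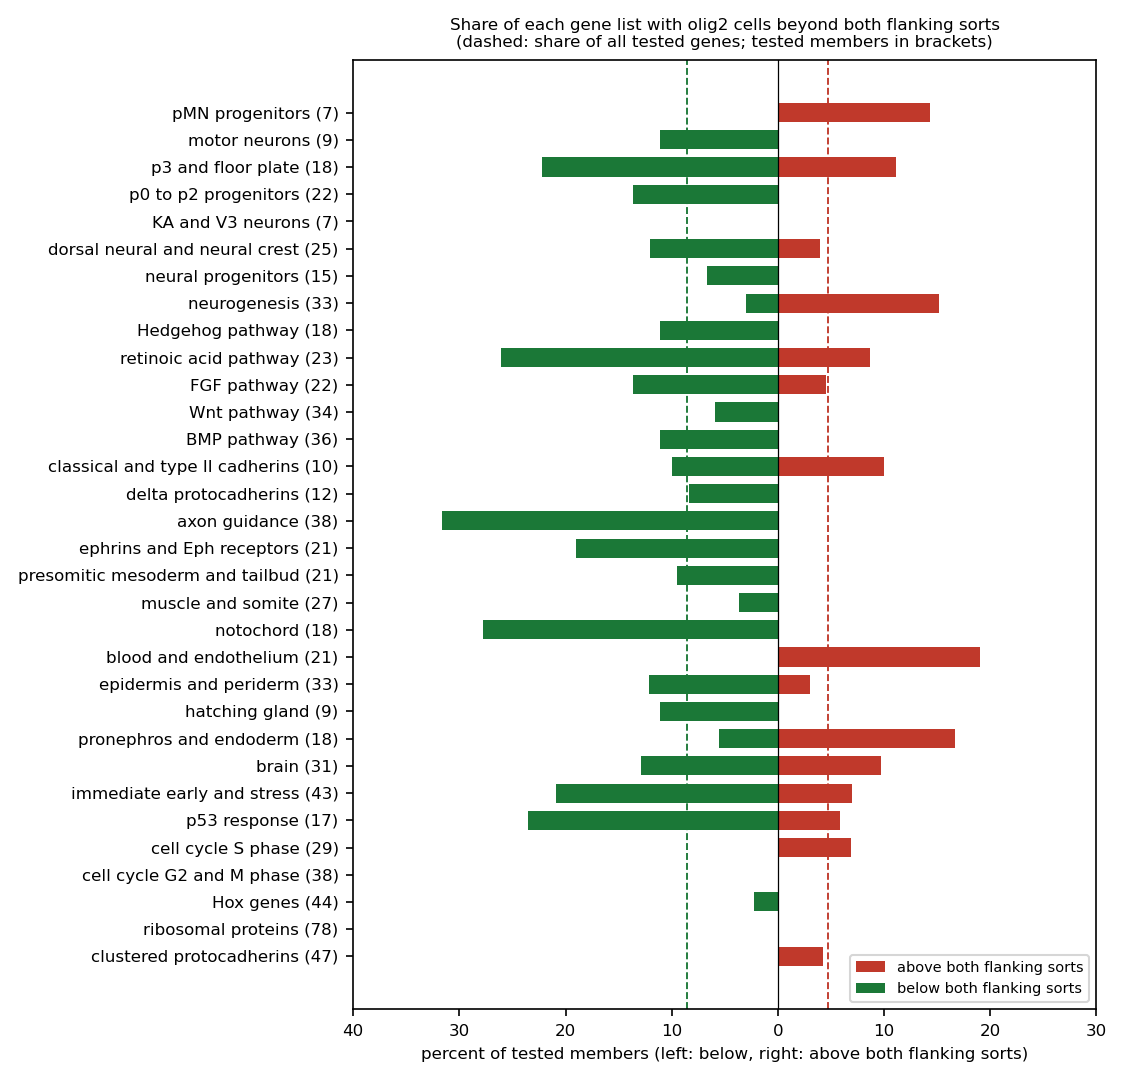
Percent of the tested members of each of 32 gene lists that were peaks (red, to the right) or dips (green, to the left), with the number of tested members in brackets. Dashed lines mark the shares among all tested genes, 4.68% and 8.57%; guidance genes reach 31.6% on the left, and blood and endothelial genes 19.0% on the right.

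The remaining lists cover more dorsal domains, neuron types and the hatching gland. Of 22 genes of the p0 to p2 domains, 3 were dips (13.6%) and 0 were peaks, beside 8.57% and 4.68% of all genes and with a median of -0.78 that was -0.25 without nkx2.2a replicate 1 and -1.37 without olig2 replicate 2. irx5a had 7.3 and 8.77 CPM in olig2 cells, 19.7 and 51.1 CPM in nkx2.2a cells and 62.5 and 35 CPM in dbx1b cells, while evx1 and eng1b were low throughout, and evx1, without a count in olig2 cells, was at least 4.3-fold lower. Of 7 tested genes in a list for V3 interneurons and Kolmer-Agduhr neurons none was a peak or a dip. That list does not hold sim1a, the V3 gene given above as a peak. Dorsal neural and neural crest genes counted 3 dips (12%) and 1 peak (4%) among 25, with 7 dips without olig2 replicate 1 and 6 without olig2 replicate 2. pax3a, a dorsal paired box gene, had 8.52 and 18.7 CPM in olig2 cells, 30.8 and 44.5 CPM in nkx2.2a cells and 95.3 and 62 CPM in dbx1b cells, foxd3, of early neural crest, had 3.04 and 1.19 CPM in olig2 cells, 5.37 and 16.3 CPM in nkx2.2a cells and 21.3 and 22.4 CPM in dbx1b cells, and zic1 was the remaining dip. The peak was snai2, a zinc finger gene of crest and mesoderm, with 98.9 and 64.2 CPM in olig2 cells, 40.9 and 4.84 CPM in nkx2.2a cells and 24.5 and 19.7 CPM in dbx1b cells. The median of this list, -0.02, changed sign under both other scalings tried. Among 9 hatching gland genes 8 were lower and cd63 was the 1 dip (11.1%). The median of -0.70 was -4.07 without olig2 replicate 2 and 0.41 without dbx1b replicate 2. It was -1.82 over nkx2.2a cells and 1.53 over dbx1b cells. The list summed to 168 and 295 CPM in olig2 cells, 1561 and 957 CPM in nkx2.2a cells and 171 and 253 CPM in dbx1b cells. Its total thus marked nkx2.2a cells.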

How the data were processed

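The deposited counts are whole reads mapped to each of 54437 transcripts, left without normalisation by the authors. Bowtie 1.1.1, FastQC 0.11.3 and the genome build GRCz10 are listed, per the submitters' processing notes, with no step assigned to any of them. All counts are even, since both mates were counted, and reads with no transcript stayed out of library sizes; 19.4% to 33.4% of reads were mapped. Counts were summed per gene symbol (30677 symbols, 21329 of them found in a RefSeq table of assembly GRCz12tu). Strand and reads with several matches could not be considered.

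All 6 libraries entered 1 fit in edgeR 4.0.16 (R 4.3.3, limma 3.58.1) with a mean for each group, after TMM scaling and filterByExpr at its default minimum count of 10, which left 3 residual degrees of freedom. Moderation across genes added 6.27 prior degrees of freedom, and the 95% intervals used both. A standard error was the size of the log2 difference divided by the square root of its F statistic. The contrast was olig2 minus the mean of nkx2.2a and dbx1b on the log2 scale, with Benjamini-Hochberg adjustment over 19129 symbols. A second test took the larger of both single p-values where the signs agreed. A gene without a count in a group was set at 3 fragments over the group for a lower bound of its fold, which covers counting error only. For olig2 cells the bound was taken against the mean of all 4 flanking libraries. It is smaller against the lower of both flanking populations. FPKM values were computed here from the counts and summed per symbol. The chi-square per degree of freedom between libraries of a group was 42.5, 46.4 and 40.5 for olig2, nkx2.2a and dbx1b, and no library repeats another.

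The comparison, gene lists and tests were chosen with earlier results of these data known. The text names olig2, nkx2.2a, dbx1b, cdh2, cdh11 and pcdh19 and up to 12 genes per direction with the smallest unadjusted p among peaks or dips with at least 10 CPM and no clone name. From each list it takes up to 3 members that were peaks or dips, by unadjusted p, or up to 2 where there were none. Some genes that meet this rule are not reported here. Other list members that are named were chosen after their values were seen. Alternatives were RLE scaling, no scaling, no filter, at least 1 CPM in 2 libraries, a replicate block, the flanking libraries as 1 group, DESeq2 1.42.0 and leaving out each library. Counts halved to fragments and the minimum levels of 10 and 50 CPM were chosen after seeing the data.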

Additional observations from a re-analysis of the deposited data

How the results depend on the processing

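Leaving out 1 library gave 0 to 3 genes called higher and 0 to 2 called lower: LOC101886854, LOC103911298 and si:ch211-116m6.3 without dbx1b replicate 2, and pltp and wu:fb37b09 without olig2 replicate 2. The stricter test then gave 0 higher and 0 to 1 lower genes, the 1 without olig2 replicate 2. Without a filter, 208 higher and 153 lower genes were called (5 and 13 by the stricter test), and 318 of these 361 were among the genes tested above. DESeq2 called 218 and 504 (12 and 66 by the stricter test), with 2724 genes at an unadjusted p under 0.05 and 2596 without an adjusted p; 64 of the 91 genes named by rule were among its calls. RLE scaling, no scaling, the filter of 1 CPM, 1 group of flanking libraries and halved counts called 0 genes in edgeR. Of those 91 genes, 89 kept the sign of their difference in every alternative that tested them, all but nkx2.2a and sst1.1. Peaks numbered 2681 and 2500 without olig2 replicate 1 and 2, 1361 and 1444 without nkx2.2a replicate 1 and 2, and 1186 and 1213 without dbx1b replicate 1 and 2. Dips numbered 3539 and 3107 without olig2 replicate 1 and 2, 1849 and 2756 without nkx2.2a replicate 1 and 2, and 2069 and 1921 without dbx1b replicate 1 and 2; fewer libraries then had to stand apart and the filter passed other genes. At 10 CPM there were 496 peaks and 860 dips, and at 50 CPM 141 and 173. In an olig2 library 1 fragment was worth 0.307 or 0.24 CPM, which limits how low a level could be measured.

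With the replicate number as a block edgeR called 0 genes, with 914 peaks and 1655 dips. Deviations of same-numbered libraries correlated at 0.0239, 0.015 and -0.0135. The labels do not say whether same-numbered libraries were prepared together, and low correlations between such variable libraries cannot decide it.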

Other observations

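Hox genes mark position along the body axis, and their median difference was positive over nkx2.2a cells and negative over dbx1b cells. Of 44 tested Hox genes, 29 were higher in olig2 cells than the mean of both flanking populations, and the list's median log2 difference was 1.34 over nkx2.2a cells and -0.54 over dbx1b cells, beside medians of -0.05 and -0.05 over all genes. cdx4, a regulator of posterior Hox genes, had 372 and 300.1 CPM in olig2 cells, 91.9 and 86.2 CPM in nkx2.2a cells and 446 and 335 CPM in dbx1b cells. hoxb7a had 131 and 51.9 CPM in olig2 cells, 28.7 and 16 CPM in nkx2.2a cells and 56.9 and 77.2 CPM in dbx1b cells, and hoxb1b had 359 and 329 CPM in olig2 cells, 151 and 86.5 CPM in nkx2.2a cells and 379 and 308 CPM in dbx1b cells. In these 3 genes both olig2 libraries lay above both nkx2.2a libraries and overlapped the dbx1b libraries.

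Reads of genes of the brain list were present although brains had been removed. Of 31 tested members 3 were peaks (9.68%), beside 4.68% of all genes. Whether their reads came from brain or from trunk cells was not tested. otx2 had 86.7 and 41 CPM in olig2 cells, 38.1 and 6.05 CPM in nkx2.2a cells and 13.3 and 35 CPM in dbx1b cells, and barhl2 had 24.3 and 25.4 CPM in olig2 cells, 18.5 and 5.44 CPM in nkx2.2a cells and 2.52 and 6.06 CPM in dbx1b cells. emx1 had 1.22 and 29.4 CPM in olig2 cells, 0.79 and 0 CPM in nkx2.2a cells and 0.18 and 0 CPM in dbx1b cells, a peak through olig2 replicate 2. Within the p53 list tp53inp1 lay on the other side from most members, with 14.9 and 23.9 CPM in olig2 cells, 1.26 and 0 CPM in nkx2.2a cells and 4.68 and 6.77 CPM in dbx1b cells (log2 difference 3.31 ± 1.25). These genes were chosen after their values were seen.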
